A study of Rattus norvegicus with 12 samples.

Results

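Volume overload (VO) raises the filling of a heart chamber, and the fistula used in this study returns arterial blood to the veins, so that both sides of the heart receive extra flow. The genes described here are those whose response to VO went the same way in the left ventricle (LV) and the right ventricle (RV) of the neonatal rat. They were sought among all 32545 genes of the deposited table by the main effect of treatment, 6 VO libraries against 6 sham libraries with the ventricle as a factor. Of these genes, 13910 had a mean of at least 0.5 FPKM (reads scaled by library depth and gene length) and were tested. The direction was the same in both ventricles for 4252 of them (30.6%), of which 1971 were higher and 2281 lower in VO.

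All animals were Sprague-Dawley rats operated on postnatal day 1 (P1) and sampled at P7. VO animals carried a needle-made fistula between the abdominal aorta and the inferior vena cava, and sham animals had the operation without it. RNA from the free-wall myocardium was sequenced in 4 groups of 3 libraries, sham LV, VO LV, sham RV and VO RV. The labels do not say whether the libraries of a group came from separate animals, or whether an LV and an RV came from the same rat, so p values measure the spread between these libraries. In pieces of whole muscle, a change in the number of cells of a type and a change in the RNA of each cell cannot be told apart.

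When a heart chamber is stretched, cardiac cells are known to switch on immediate early genes, which encode transcription factors and feedback inhibitors and need no new protein synthesis to be transcribed. Natriuretic peptides, which cardiomyocytes secrete under wall stress, and matricellular proteins such as those of the CCN family follow. The neonatal rodent heart still holds dividing cardiomyocytes, and cell division genes decline over the first week of life.

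Between 14121713 and 16871371 reads lay on genes in each library. The 9 cardiomyocyte markers in the table were above 0 in every library, with a summed FPKM of 13408 in VO RV replicate 2 and 16685 to 21204 in the others. The 8 fibroblast markers were highest in that library too (summed FPKM 4935, against 2063 to 3640). Among RV libraries, markers of atrial muscle were high in VO RV replicate 2 and, less so, in sham RV replicate 1 (summed FPKM 4634 and 1091, against 225 to 324 in the other 4). In the LV the same sum was 715 to 1165 in sham and 907 to 1743 in VO, so that 4 of the 6 LV libraries lay above sham RV replicate 1. Nppa alone was 519 to 1423 FPKM in the LV libraries, the larger part of each sum. Sln was at most 0.623 FPKM and Bmp10 at most 0.140 FPKM in the LV. They were 97.7 and 12.6 FPKM in sham RV replicate 1, and 388 and 72.4 FPKM in VO RV replicate 2. Kcna5 and, in some LV libraries, Myl4 and Nppa lay above sham RV replicate 1. The sum is thus no measure of atrial tissue in the LV. Genes of chromosome Y held 2502 to 2949 reads in 5 libraries and 0 to 3 reads in the other 7. The 5 libraries with such reads were sham LV replicates 1 and 2, sham RV replicates 1 and 2 and VO RV replicate 3, so 4 of 6 sham libraries and 1 of 6 VO libraries had them. The presence of Y-linked reads thus moved with treatment, and its part in the results was not tested beyond a fit with these genes as a covariate and a fit of the 7 libraries without such reads.

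An average response past the threshold was found for 2 genes, Nr4a1 and Sik1, both of which were higher in VO in each ventricle. A stricter limma test, which asks each gene to pass in both ventricles, called 0 genes (smallest adjusted p = 0.625). A differentially expressed gene (DEG) needed a Benjamini-Hochberg adjusted p under 0.05 from limma and a fold change over 1.3 in the average of the LV and RV responses, which 0.0144% of the tested genes met (SE below stands for the standard error of a log2 fold change). Nr4a1 encodes an orphan nuclear receptor of the NUR77 family that is transcribed within minutes of many stimuli. Sik1 encodes a salt-inducible kinase that phosphorylates CREB coactivators and class IIa histone deacetylases. No gene that was lower in VO passed (0 DEGs with limma, smallest adjusted p = 0.550), although 104 genes (0.748%) were lower at the nominal level, that is with over 1.3-fold difference and p under 0.05 before adjustment. That level was passed by 221 genes (1.59%) in either direction, of which 184 (1.32%) had 1 direction in both ventricles. An unadjusted limma p under 0.05 alone held for 2.32% of tested genes higher and 2.19% lower in VO. Together these are no more than a threshold of 0.05 gives without any effect, so the nominal genes are no excess.

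The window from 250 bases before to 50 bases after the start of each gene is shown for these 2 genes and for Ppp1r15a, the gene with the next smallest p, because cyclic AMP response elements are a known feature of immediate early promoters. Capitals mark each match to the core of that element, TGACG, read on either strand (CGTCA on the printed strand). The sequences and positions are those of RefSeq on GRCr8, Nr4a1 at chr7:134259888-134260187, plus strand, Sik1 at chr20:9958597-9958896, minus strand, and Ppp1r15a at chr1:105139547-105139846, minus strand.
Nr4a1: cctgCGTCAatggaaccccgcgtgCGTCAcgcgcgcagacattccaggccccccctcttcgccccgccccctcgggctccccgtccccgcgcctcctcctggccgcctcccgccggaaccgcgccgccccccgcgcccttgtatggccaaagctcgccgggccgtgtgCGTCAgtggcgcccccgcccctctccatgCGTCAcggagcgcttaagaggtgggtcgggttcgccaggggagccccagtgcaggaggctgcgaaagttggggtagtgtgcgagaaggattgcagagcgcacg
Sik1: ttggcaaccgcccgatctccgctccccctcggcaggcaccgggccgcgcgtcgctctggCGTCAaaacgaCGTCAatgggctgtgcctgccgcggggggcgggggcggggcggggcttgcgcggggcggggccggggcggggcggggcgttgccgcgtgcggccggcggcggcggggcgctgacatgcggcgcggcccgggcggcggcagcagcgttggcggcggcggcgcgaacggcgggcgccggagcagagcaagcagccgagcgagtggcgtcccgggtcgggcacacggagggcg
Ppp1r15a: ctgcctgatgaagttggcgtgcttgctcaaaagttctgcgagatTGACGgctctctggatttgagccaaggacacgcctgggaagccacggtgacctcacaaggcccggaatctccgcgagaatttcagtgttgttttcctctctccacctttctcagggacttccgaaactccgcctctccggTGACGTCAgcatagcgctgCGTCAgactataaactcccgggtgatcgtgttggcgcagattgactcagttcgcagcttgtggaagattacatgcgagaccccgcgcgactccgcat
The window of Nr4a1 held 4 matches and that of Sik1 held 2. The window of Ppp1r15a held 4, of which 1 pair overlaps in the full palindrome TGACGTCA. Among all 33469 RefSeq rat promoters, 21.2% held the core and 1.83% the palindrome.

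Nr4a1 (ENSRNOG00000007607; chromosome 7, 142905758 to 142920216 in the deposited table, whose build is not stated) was 6.26, 7.40 and 6.92 FPKM in the sham LV libraries and 13.5, 18.4 and 14.9 FPKM in the VO LV libraries. In the RV, the values were 8.17, 9.96 and 7.94 FPKM in sham and 17.01, 18.9 and 14.2 FPKM in VO. Every VO library lay above every sham library in both ventricles. The group means were 6.86 ± 0.571 FPKM (SD, n = 3) in sham LV against 15.6 ± 2.51 in VO LV, and 8.69 ± 1.10 in sham RV against 16.7 ± 2.36 in VO RV. Its average log2 fold change was 1.01 (SE 0.10, limma adjusted p = 0.00711), with 1.12 for LV and 0.91 for RV. The LV response of Nr4a1 exceeded the RV response by 0.22 log2 units (SE 0.20), which did not pass the test of the difference that 4.19% of tested genes passed (limma adjusted p = 0.513). An exact two-sided permutation test within ventricles gave p = 0.005, the smallest that its 400 arrangements allow, which every gene with groups apart in 1 direction in both ventricles reaches, so it adds no support to a gene chosen by its p. These values rest on 255 to 903 reads per library.

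Sik1 (ENSRNOG00000001189; chromosome 20, 10668411 to 10680283) was 5.05, 4.84 and 4.68 FPKM in sham LV and 13.004, 15.2 and 15.6 FPKM in VO LV. The RV values were 7.81, 6.90 and 5.33 FPKM in sham and 13.1, 14.4 and 8.83 FPKM in VO. The 6 VO libraries again lay above the 6 sham libraries, with VO RV replicate 3 nearest to them. Sik1 had the larger average log2 fold change of the pair, 1.15 (SE 0.12, limma adjusted p = 0.00889), with 1.49 for LV and 0.80 for RV. The LV response of Sik1 was larger by 0.69 on the log2 scale (SE 0.25), a difference with an adjusted p of 0.120 from limma.

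Both calls were lost when the Y-linked genes entered the fit, with fold changes close to those above. With the mean of the Y-linked genes as a covariate there were 0 DEGs with limma (201 genes at the nominal level), and the log2 fold changes were 0.99 for Nr4a1 (adjusted p = 0.126) and 1.13 for Sik1 (adjusted p = 0.133). In the 7 libraries without Y-linked reads, Nr4a1 was 6.92 and 7.94 FPKM in the 2 sham libraries and 13.5 to 18.9 FPKM in the 5 VO libraries (log2 fold change 1.12, limma adjusted p = 0.154). Sik1 in the same 7 libraries was 4.68 and 5.33 FPKM in sham and 13.0 to 15.6 FPKM in VO (log2 fold change 1.42, limma adjusted p = 0.0496). Without the 2 RV libraries that were high in atrial markers, Nr4a1 had a log2 fold change of 0.95 (limma adjusted p = 0.0480) and Sik1 of 1.14 (limma adjusted p = 0.0348). The plot of the alternative settings shows the fold changes and adjusted p values of both genes side by side.

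**Figure D1:**
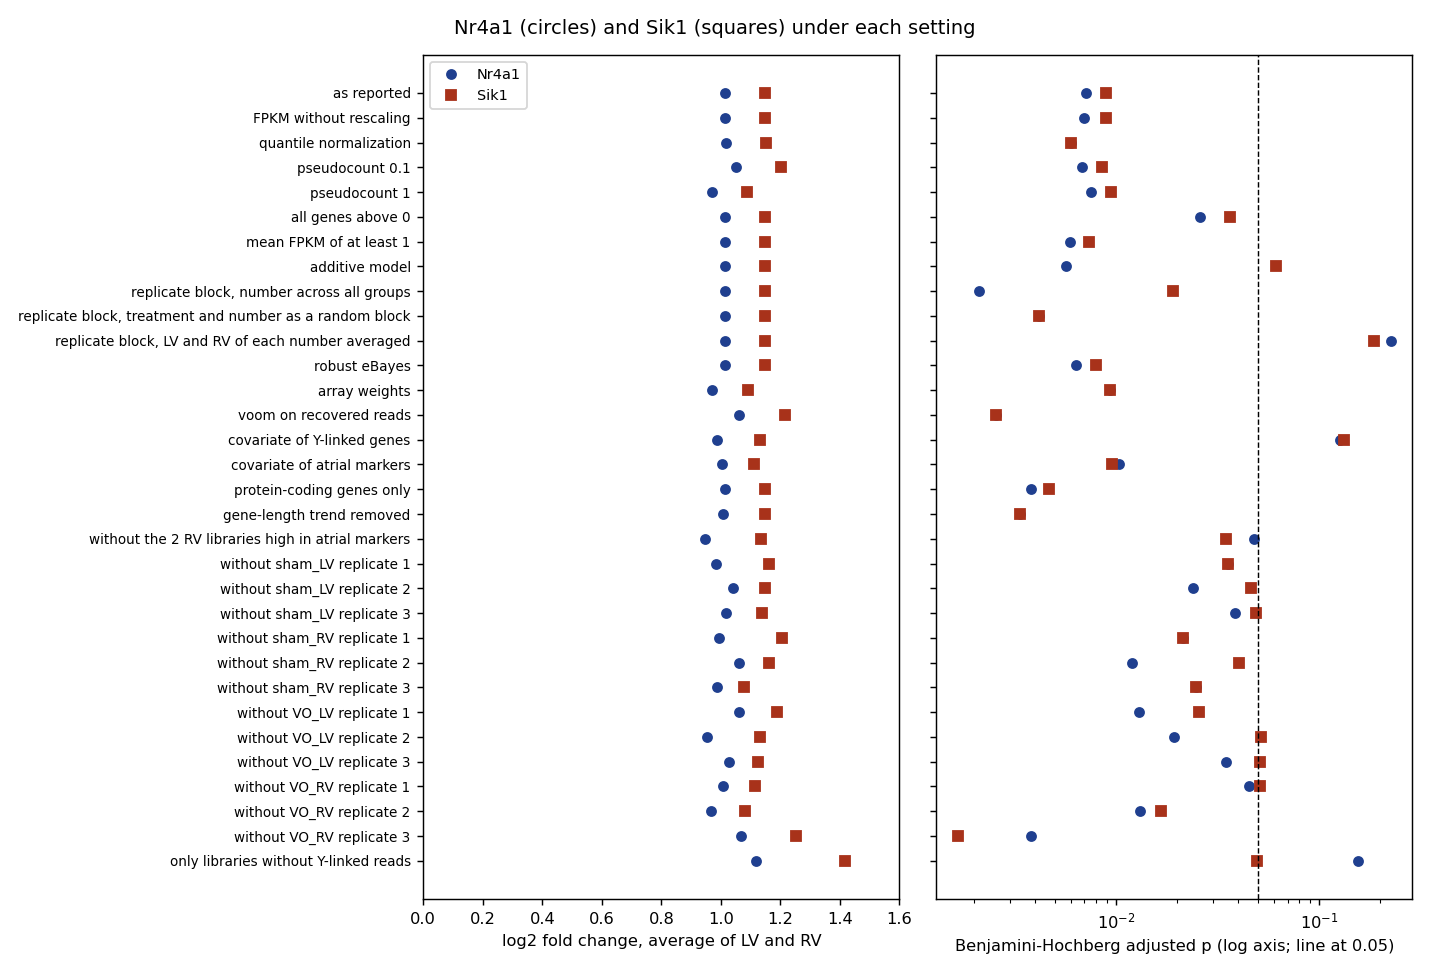
Average log2 fold change (left) and adjusted p on a log axis (right) of Nr4a1 (circles) and Sik1 (squares) in the reported fit and under each alternative setting. The fold changes stay between 0.95 and 1.42, while the adjusted p crosses the line at 0.05 under 3 settings for Nr4a1 and 6 for Sik1.

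Ppp1r15a followed by p. It encodes GADD34, the subunit that directs protein phosphatase 1 to the initiation factor eIF2α after stress. It was 22.6, 17.4 and 18.3 FPKM in sham LV, 28.1, 31.2 and 31.5 in VO LV, 26.3, 24.9 and 25.8 in sham RV and 37.98, 30.5 and 33.7 in VO RV. All 6 VO libraries lay above all 6 sham libraries, but the average log2 fold change of 0.52 (SE 0.08) had an adjusted p of 0.150 from limma and Ppp1r15a was not a DEG. Without sham LV replicate 1 its adjusted p was 0.0355 from limma. The log2 fold change of Ppp1r15a was 0.53 with the Y-linked covariate and 0.55 in the 7 libraries without Y-linked reads.

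Genes of the immediate early list were mostly higher in VO in both ventricles. Of 30 tested members, 26 had a positive average, 21 were higher in both ventricles and 2 lower in both, beside 14.2% and 16.4% of all tested genes. At an unadjusted p under 0.05, 15 were higher and 0 lower, against 2.32% and 2.19% of all tested genes, and 1 of them, Nr4a1, was a DEG. The median log2 fold change of the list was 0.19 (LV 0.17, RV 0.27), beside a median of −0.002 over all tested genes. It was 0.21 with the Y-linked covariate, 0.17 in the 7 libraries without Y-linked reads and 0.20 without the 2 RV libraries high in atrial markers.

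Among the transcription factors of this list, the values of Atf3, Egr1, Fos and Nr4a3 are given here after they had been seen. Atf3, a stress-induced bZIP repressor, was 1.46 to 2.76 FPKM over the 6 sham libraries and 2.49 to 5.70 FPKM over the 6 VO libraries (log2 fold change 0.61, SE 0.17, 0.41 for LV and 0.82 for RV). Egr1, a zinc finger activator of the serum response, was 4.35 to 7.25 FPKM in sham and 6.50 to 14.1 FPKM in VO (log2 fold change 0.56, SE 0.18). The groups overlapped for both genes with the ventricles pooled, and for Atf3 they did not overlap within either ventricle. Fos, a subunit of the AP-1 factor, was low throughout, at 0.699 to 1.61 FPKM in sham and 1.28 to 6.21 FPKM in VO. Nr4a3, a relative of Nr4a1, was 0.104 to 1.25 FPKM in sham and 0.582 to 1.85 FPKM in VO (log2 fold change 0.78, SE 0.26). The adjusted p was above 0.05 for each of these 4 genes, between 0.877 and 0.938 from limma. For Fos, Egr1 and Nr4a3 the highest value was in VO RV replicate 2, the library with the lowest cardiomyocyte and the highest fibroblast and atrial markers. Without it the log2 fold changes of Fos and Egr1 were 0.51 and 0.46. That of Nr4a3 was 0.61 to 0.95 with each library left out. The other relative, Nr4a2, did not share the direction, with −0.27 for LV and 0.26 for RV. The other AP-1 genes of the Fos and Jun families, also named after their values were seen, were mixed. Jun was almost unchanged, with an average log2 fold change of 0.03, while Junb and Jund were at 0.20 and 0.15. For LV and RV, Fosb had −0.09 and 0.22, Fosl1 −0.28 and 0.05, and Fosl2 0.37 and −0.16.

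The same list held growth-arrest and feedback genes. Gadd45g, which encodes a stress sensor that binds MAP3K4, was 31.1 to 47.1 FPKM in sham LV and 42.3 to 51.5 in VO LV, and 25.98 to 36.7 in sham RV and 46.1 to 68.7 in VO RV. Its groups overlapped in the LV and not in the RV, and its average log2 fold change was 0.63 (SE 0.14, limma adjusted p = 0.574). Ier3, an early response gene that modulates cell survival, was 20.7 to 24.9 FPKM in sham and 23.9 to 33.2 FPKM in VO (log2 fold change 0.36, SE 0.08). Zfp36, which encodes an mRNA-destabilizing protein and was named after its values were seen, was 12.01 to 15.7 FPKM in sham and 15.1 to 19.3 FPKM in VO, without overlap within either ventricle (log2 fold change 0.33, SE 0.08). The mitogen-activated kinase phosphatase gene Dusp5 did not share the direction, with 0.97 for LV and −0.08 for RV. Promoters were found in the RefSeq table for 20 of the 30 immediate early genes, and 12 of these (60.0%) held the TGACG core, beside 21.2% of all promoters. The core was also held by 15 of 35 promoters (42.9%) of the cell cycle and mitosis list described below.

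**Figure D2:**
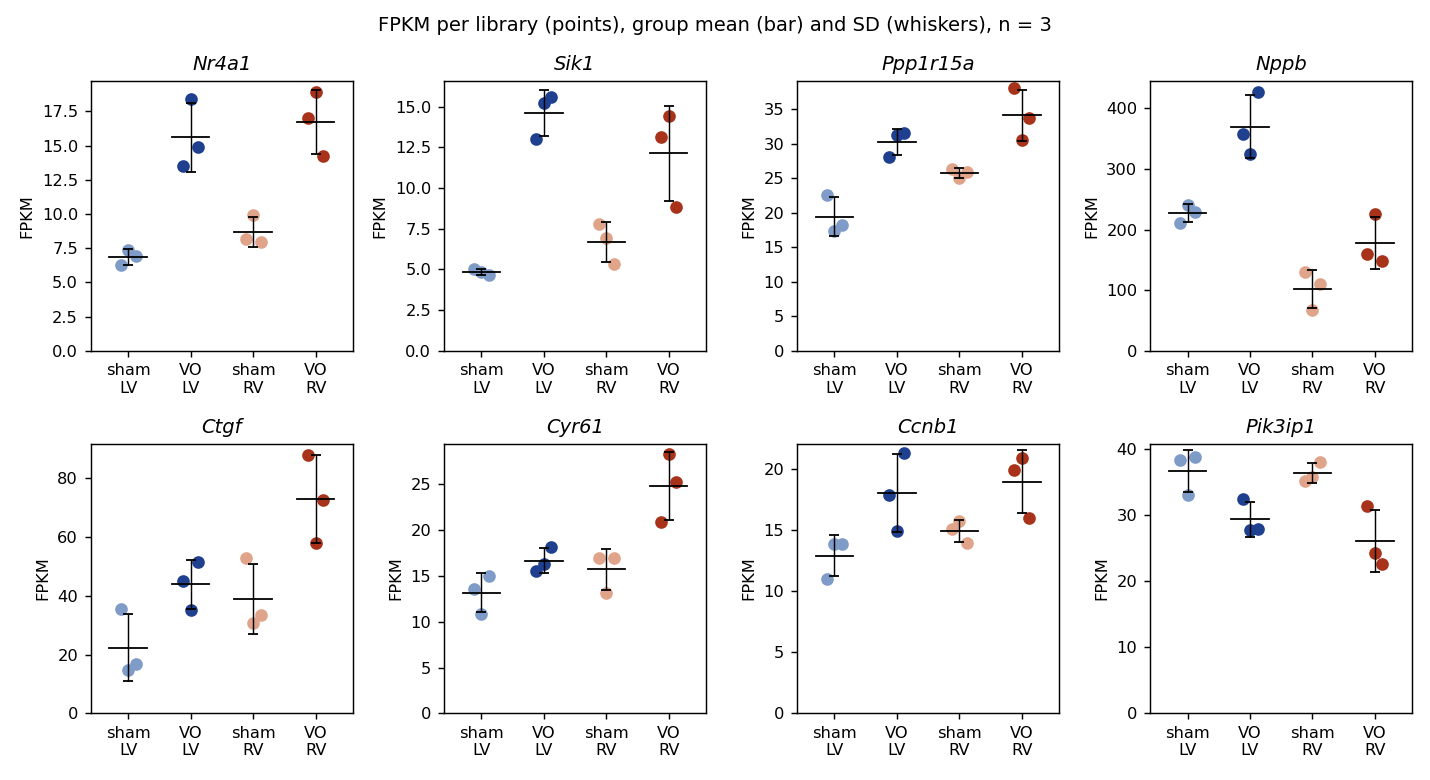
FPKM of 8 genes in each library (points) of sham LV, VO LV, sham RV and VO RV, with the group mean (bar) and SD (whiskers, n = 3); each axis starts at 0. VO libraries of Nr4a1, Sik1 and Ppp1r15a lie above all sham libraries, Nppb is set apart within each ventricle at levels that differ between LV and RV, and Pik3ip1 is lower in VO.

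Nppb, Ctgf and Cyr61, which encode secreted proteins, had positive log2 fold changes in both ventricles, and none of them was a DEG. Other secreted factors went apart. Adm, the adrenomedullin gene, had −0.42 for LV and 0.25 for RV, and Vegfa, the vascular endothelial growth factor gene, −0.67 and 0.18, both named after their values were seen. Nppb, the precursor of B-type natriuretic peptide, was 211, 239.9 and 229 FPKM in sham LV and 357, 325 and 427 FPKM in VO LV. In RV libraries Nppb was 129.6, 67.1 and 109 FPKM in sham and 160.1, 226 and 147 FPKM in VO. The groups did not overlap within either ventricle, as for 34 genes (0.244%) higher in both, 25 (0.18%) lower in both and 658 (4.73%) with opposite directions, and the RV values were below the LV values of the same treatment. Without any effect, groups lie apart in 1 direction in both ventricles with the smallest permutation probability, 0.005. The shares in 1 direction did not exceed it, so lack of overlap alone does not mark a response in this or any other gene. The average log2 fold change of Nppb was 0.76 (SE 0.16, limma adjusted p = 0.574), with 0.70 for LV and 0.83 for RV. Its highest RV values of each treatment were in sham RV replicate 1 and VO RV replicate 2, the libraries high in atrial markers, and without them the log2 fold change was 0.77 (limma adjusted p = 0.367).

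The CCN family members Ctgf and Cyr61, matricellular proteins that are established targets of the Hippo pathway coactivator YAP, follow. Ctgf was 35.6, 14.9 and 16.8 FPKM in sham LV and 45.1, 35.1 and 51.4 FPKM in VO LV. On the right side Ctgf was 52.7, 30.7 and 33.5 FPKM in sham and 87.9, 58.1 and 72.6 FPKM in VO. Sham LV replicate 1 reached the VO LV range, so the groups overlapped in the LV, while they did not in the RV. The log2 fold change of Ctgf was 0.98 (SE 0.22, limma adjusted p = 0.574), with 1.05 for LV and 0.92 for RV. Cyr61 was 10.9 to 15.03 FPKM in sham LV, 15.5 to 18.2 in VO LV, 13.1 to 16.97 in sham RV and 20.9 to 28.3 in VO RV, without overlap within either ventricle (log2 fold change 0.49, SE 0.11, and 0.44 without VO RV replicate 2, its highest library). Thbs1, another matricellular gene, was 6.01 to 7.21 FPKM in sham LV and 8.18 to 16.2 in VO LV without overlap. In the RV Thbs1 was 10.3, 25.98 and 10.5 FPKM in VO against 8.16 to 13.6 in sham, with VO RV replicate 2 far above the other VO libraries (log2 fold change 0.58, SE 0.24, and 0.37 without that library). With the Y-linked covariate the log2 fold changes were 0.65 for Nppb, 1.10 for Ctgf and 0.42 for Cyr61, and in the 7 libraries without Y-linked reads they were 0.74, 1.21 and 0.32.

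The wider load-responsive and fetal muscle list had medians of opposite sign in the ventricles. Of 29 tested members, 24 had a positive average, yet 7 were higher in both ventricles and 1 was lower in both, and the medians were 0.40 for LV and −0.04 for RV. At an unadjusted p under 0.05, 5 were higher and 0 lower (2.32% and 2.19% of all tested genes). The 29 members include the metallothionein gene Mt1 with more than 1 entry. The 7 higher in both ventricles include the atrial markers Myl4 and Myl7, whose RV increase rests on VO RV replicate 2. Myl4 was 599 FPKM there and 142 to 147 in the other VO RV libraries, and Myl7 463 against 34.5 to 51.4. Ankrd1, which encodes a stretch-sensing ankyrin repeat protein, was 510.4 to 668 FPKM in sham LV and 743 to 1036 in VO LV, while 849 to 862 in sham RV lay within 827 to 950.5 in VO RV. Nppa, the atrial natriuretic peptide gene, ranged from 64.2 to 951 FPKM in sham and from 73.3 to 3037 FPKM in VO, the highest value being VO RV replicate 2. Its log2 fold change was 0.57 with an SE of 0.84, and without that library it was −0.28. Acta1, skeletal alpha-actin, had log2 fold changes of 0.42 for LV and −0.05 for RV.

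Of 48 tested genes of the cell cycle and mitosis list, which encode the machinery of cell division, 42 had a positive average, 28 were higher in both ventricles, 1 was lower in both and 19 had opposite directions, beside 14.2% (higher) and 16.4% (lower) of all tested genes. At an unadjusted p under 0.05, 12 were higher and 0 lower, beside 2.32% and 2.19% of all tested genes, and none was a DEG with limma. The list median was 0.16 (LV 0.12, RV 0.16), 0.11 with the Y-linked covariate, 0.17 in the libraries without Y-linked reads and 0.11 without the 2 RV libraries high in atrial markers. The panels of list members show both points on the positive side for these 28 genes, in contrast to Ccnd2, which encodes cyclin D2 and had 1.85 for LV and −0.91 for RV.

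Ccnb1, which encodes cyclin B1, the activator of the kinase that starts mitosis, was 11.01, 13.9 and 13.9 FPKM in sham LV and 17.9, 14.9 and 21.3 FPKM in VO LV. In RV libraries it was 15.1, 15.7 and 13.9 FPKM in sham and 19.9, 20.9 and 16.02 FPKM in VO. The groups did not overlap within either ventricle, and the log2 fold change was 0.40 (SE 0.10, limma adjusted p = 0.828). Gtse1, a microtubule-associated protein of the G2 phase, was 5.53 to 6.76 FPKM in sham and 6.88 to 9.06 FPKM in VO, so that all VO libraries lay above all sham libraries (log2 fold change 0.39, SE 0.08). Ckap2l, a spindle protein, was 2.47 to 4.10 FPKM in sham LV, 5.22 to 7.20 in VO LV, 4.04 to 5.26 in sham RV and 4.97 to 7.29 in VO RV (log2 fold change 0.67, SE 0.14). Its RV groups overlapped. Neither Gtse1 nor Ckap2l was in the list.

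The promoter of Ccnb1 is shown because the CCAAT box is a known element of mitotic promoters (RefSeq, GRCr8, chr2:33655176-33655475, minus strand). Capitals mark its matches to CCAAT, searched on both strands.
Ccnb1: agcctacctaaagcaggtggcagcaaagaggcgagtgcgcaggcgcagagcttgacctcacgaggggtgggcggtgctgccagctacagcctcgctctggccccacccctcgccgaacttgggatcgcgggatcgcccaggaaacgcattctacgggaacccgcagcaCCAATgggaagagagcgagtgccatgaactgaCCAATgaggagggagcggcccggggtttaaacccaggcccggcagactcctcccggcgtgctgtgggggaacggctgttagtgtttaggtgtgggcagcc
It held 2 matches. Of the 35 list members with a promoter in the table, 25 (71.4%) held CCAAT and 16 (45.7%) held TTTGAA, the cell cycle homology region, beside 37.5% and 18.3% of all promoters.

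**Figure D3:**
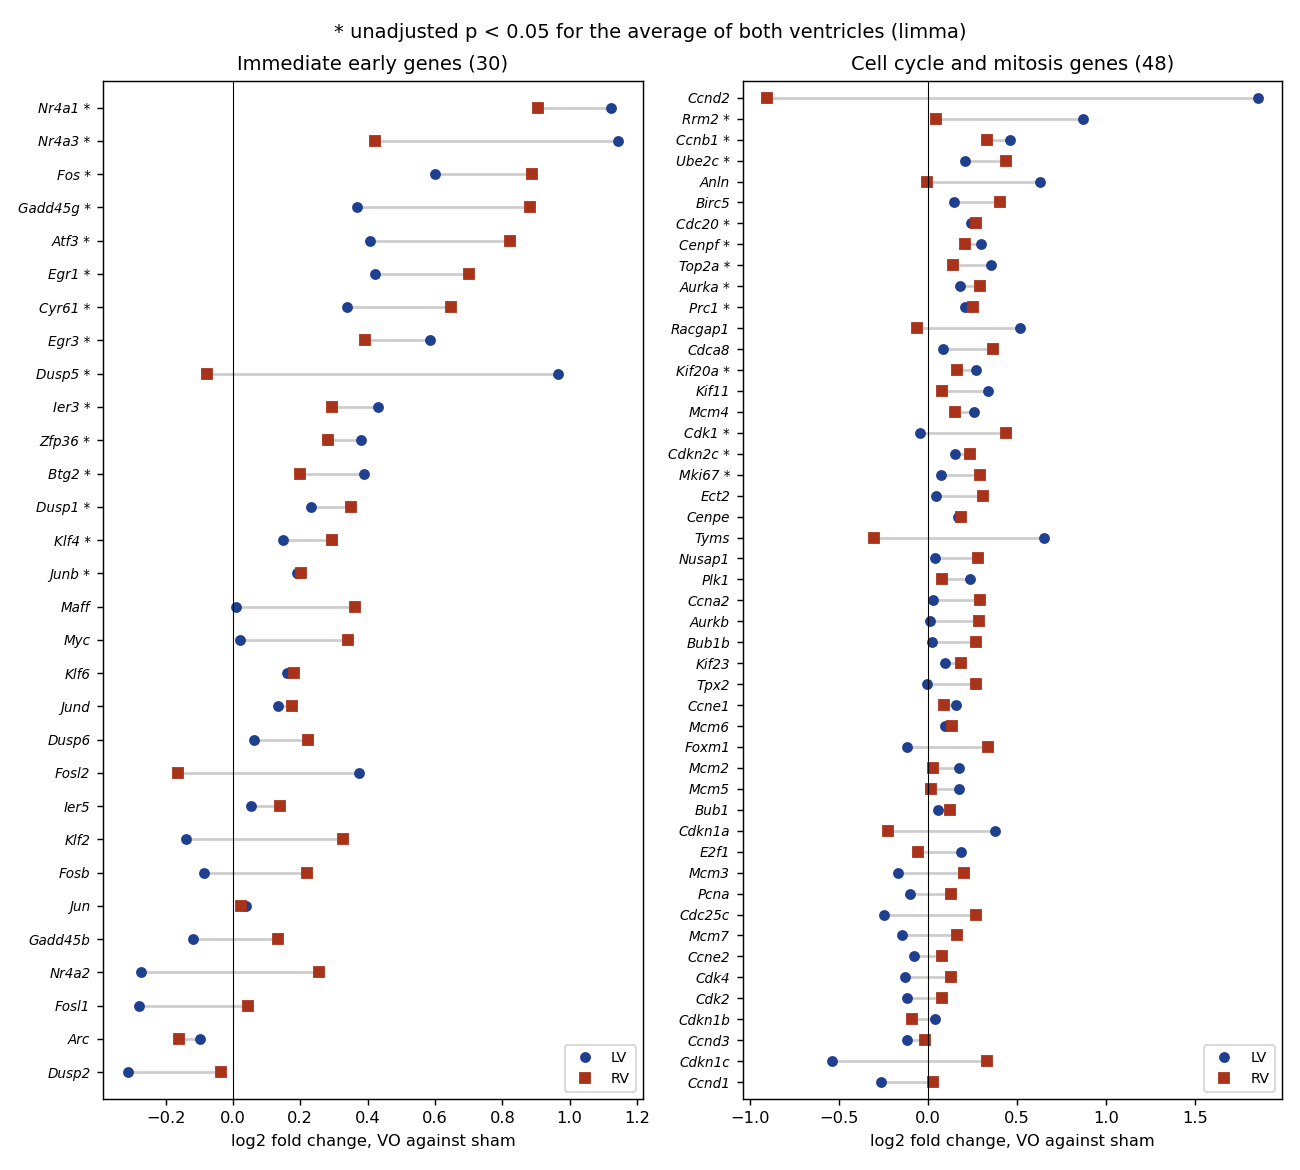
Log2 fold change of VO against sham in the LV (circles) and the RV (squares) for the 30 tested immediate early genes (left) and the 48 tested cell cycle and mitosis genes (right), ordered by their average; a star marks an unadjusted p under 0.05 for the average. In 21 and 28 of them, respectively, both points lie on the positive side of 0.

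All 6 VO libraries lay above all 6 sham libraries for 13 genes (0.0935% of those tested), a comparison that treats both ventricles as 1 pool. They were Nr4a1, Sik1, Ppp1r15a, Gtse1, Ccrl2, Spag5, Knstrn, Ndc80, Aurka, Fads1, Mvk, Slc3a2 and LOC297756, most of which were named only after this count. The share that would lie apart in this way without any effect was not computed. Neither this count nor that of the lower genes below is therefore a measure of a shared response. Spag5 and Knstrn, which encode partner proteins of the mitotic spindle, were 5.42 to 6.77 and 11.1 to 13.6 FPKM in sham and 7.10 to 8.40 and 14.02 to 18.8 FPKM in VO. Ndc80, a kinetochore subunit, was 7.17 to 8.16 FPKM in sham and 8.17 to 9.62 FPKM in VO, and Aurka, the centrosomal kinase, 5.43 to 6.27 and 6.29 to 8.26 FPKM. The average log2 fold changes of these 4 genes were between 0.23 and 0.32, and their smallest adjusted p was 0.574 from limma. Ccrl2, an atypical chemokine receptor gene, was 2.62 to 4.01 FPKM in sham and 4.13 to 5.34 FPKM in VO.

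Irs2, which encodes an adaptor of the insulin receptor, had the largest average among the named genes with a log2 fold change of 1.18 (SE 0.20, limma adjusted p = 0.293). It was 7.27, 3.97 and 4.996 FPKM in sham LV and 18.8, 15.3 and 26.2 FPKM in VO LV. The RV values of Irs2 were 16.1, 11.6 and 8.83 FPKM in sham and 23.1, 18.002 and 13.2 FPKM in VO. The LV groups were apart, the RV groups overlapped, and the log2 fold changes were 1.81 for LV and 0.56 for RV. The average for Irs2 was 1.20 with the Y-linked covariate and 1.52 in the libraries without Y-linked reads. Of the 50 tested genes in the insulin and IGF list to which it belongs, 7 (14.0%) were higher in both ventricles and 3 lower in both, beside 14.2% and 16.4% of all tested genes, with medians of 0.25 for LV and −0.10 for RV. Angptl4, a secreted inhibitor of lipoprotein lipase, was 2.56 to 6.06 FPKM in sham LV, 5.43 to 8.87 in VO LV, 3.49 to 5.71 in sham RV and 5.51 to 10.8 in VO RV, with overlap in each ventricle (log2 fold change 0.71, SE 0.22).

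Fads1, a fatty acid desaturase, was 4.48 to 4.91 FPKM in sham and 5.44 to 6.84 FPKM in VO, and Mvk, mevalonate kinase of the cholesterol pathway, was 7.55 to 8.63 and 9.16 to 11.4 FPKM. The log2 fold changes of Fads1 were 0.28 for LV and 0.31 for RV, and those of Mvk were 0.28 for LV and 0.27 for RV. Hilpda, a lipid droplet protein whose gene model here has 255 bases, was 9.18 to 12.8 FPKM in sham and 12.4 to 17.4 FPKM in VO on 34 to 66 reads (log2 fold change 0.41, SE 0.09). Slc3a2, the heavy chain of several amino acid transporters, was 26.1 to 28.5 FPKM in sham and 29.4 to 37.8 FPKM in VO. Inha, the inhibin alpha subunit, was 22.5 to 31.9 FPKM in sham LV, 44.6 to 48.6 in VO LV, 30.9 to 34.8 in sham RV and 33.9 to 46.1 in VO RV, with overlap in the RV (log2 fold change 0.52, SE 0.10).

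The genes lower in VO in both ventricles held fewer protein-coding genes and more very short ones than the higher genes. Among the 184 genes of the nominal level with 1 direction, 96 (0.69%) were lower and 88 (0.633%) higher. Of the lower genes 64 (66.7%) were protein-coding and 28 (29.2%) had gene models under 200 bases, while of the higher genes 71 (80.7%) were protein-coding and 9 (10.2%) were that short. Among all tested genes 92.3% were protein-coding and 4.13% that short, so genes of both directions were more often short. The median of the mean FPKM was 2.45 for the lower, 4.20 for the higher and 7.98 for all tested genes. Whether few reads brought short genes past the nominal level was not tested.

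Pik3ip1, a membrane inhibitor of phosphoinositide 3-kinase, had the smallest p among the named lower genes. It was 38.3, 33.1 and 38.8 FPKM in sham LV and 32.4, 27.7 and 27.96 FPKM in VO LV. RV levels were 35.2, 35.7 and 38.1 FPKM in sham and 31.4, 24.3 and 22.6 FPKM in VO. All 6 VO libraries lay below all 6 sham libraries, which held for 7 genes (0.0503%), and the log2 fold change was −0.40 (SE 0.09, limma adjusted p = 0.574), with −0.32 for LV and −0.48 for RV. For Pik3ip1 it was −0.48 with the Y-linked covariate and −0.43 in the libraries without Y-linked reads. The other 6 were SNORA17, LOC100362027, Tmem161a, Nod1, Ubtf and Zranb2, of which the last 4 were named after the count. Nod1, a sensor of bacterial peptidoglycan, was 13.3 to 15.2 FPKM in sham and 10.4 to 13.3 FPKM in VO, and its ranges touched at the printed precision. Ubtf, the transcription factor of the ribosomal RNA genes, was 35.8 to 46.9 FPKM in sham and 32.8 to 35.6 FPKM in VO.

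LOC100362027, described in the table as similar to ribosomal protein L30, was 129, 369 and 303 FPKM in sham LV and 114, 104 and 128 FPKM in VO LV. On the right side it was 153, 215 and 306 FPKM in sham and 108, 78.3 and 118 FPKM in VO. Its log2 fold change was −1.09 (SE 0.25), but reads of near-identical copies of a ribosomal protein gene can be split by the counting, so this value is uncertain. The box H/ACA RNA gene SNORA17 (ENSRNOG00000052131) of 129 bases was 1.41 to 4.48 FPKM in sham and 0 to 1.40 FPKM in VO on 0 to 8 reads per library. B3gnt8, a glycosyltransferase, was 1.94 to 4.15 FPKM in sham and 1.01 to 2.26 FPKM in VO (log2 fold change −0.50, SE 0.13).

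Among the remaining named lower genes, a 5S ribosomal RNA gene of 80 bases had log2 fold changes of −0.99 for LV and −1.04 for RV, and the others had the larger part of their difference in 1 ventricle. Mylip, the ubiquitin ligase of the LDL receptor, Gimap9, a GTPase of lymphoid cells, Gata2, a factor of blood and endothelial cells, Il17d, a cytokine, and Dlk1, a fetal membrane protein, had LV log2 fold changes of −0.45, −0.60, −0.53, −0.43 and −0.70. Their RV log2 fold changes, in the same order, were −0.10, −0.05, −0.14, −0.12 and −0.35. The precursor gene Mir6334 was lower mainly in the RV (−0.05 for LV and −1.38 for RV, on 4 to 18 reads), and the kallikrein gene Klk14 mainly in the LV (−1.55 for LV and −0.40 for RV). A test that asks each gene to pass in both ventricles, in which the larger of the LV and RV p values is adjusted, gave 0 genes with limma (smallest adjusted p = 0.625).

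With the nominal level asked of each ventricle separately, 18 genes (0.129%) shared a direction, 10 (0.0719%) higher and 8 (0.0575%) lower in VO, beside 329 genes (2.37%) with opposite directions. The 18 became 27 with the Y-linked covariate. In the 7 libraries without Y-linked reads the count was 70, but there each ventricle has 1 sham library, which is assumed to vary like the other groups, so that this number is no measure of sharing. The higher genes were Nr4a1, Sik1, Ppp1r15a, Ckap2l, Nppb, Ctgf, Ccrl2, Angptl4, Mir301a and the clone-named AABR07071208.2. Mir301a, a precursor gene of 100 bases, was 1.44 to 5.45 FPKM in sham and 3.01 to 9.48 FPKM in VO on 2 to 17 reads. The 8 lower genes were LOC100362027, B3gnt8, SNORA17, RGD1561636, AC129365.1, 1 gene each of the 5S ribosomal RNA and 7SK families, and the mitochondrial transfer RNA gene AY172581.3. Of these, 5 held fewer than 10 reads in every library, among them AY172581.3, which was listed at 0 in all VO libraries and at 0 to 4 reads in sham. The scatter of LV and RV responses shows the 18 genes at the edges of a cloud that runs from upper left to lower right.

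**Figure D4:**
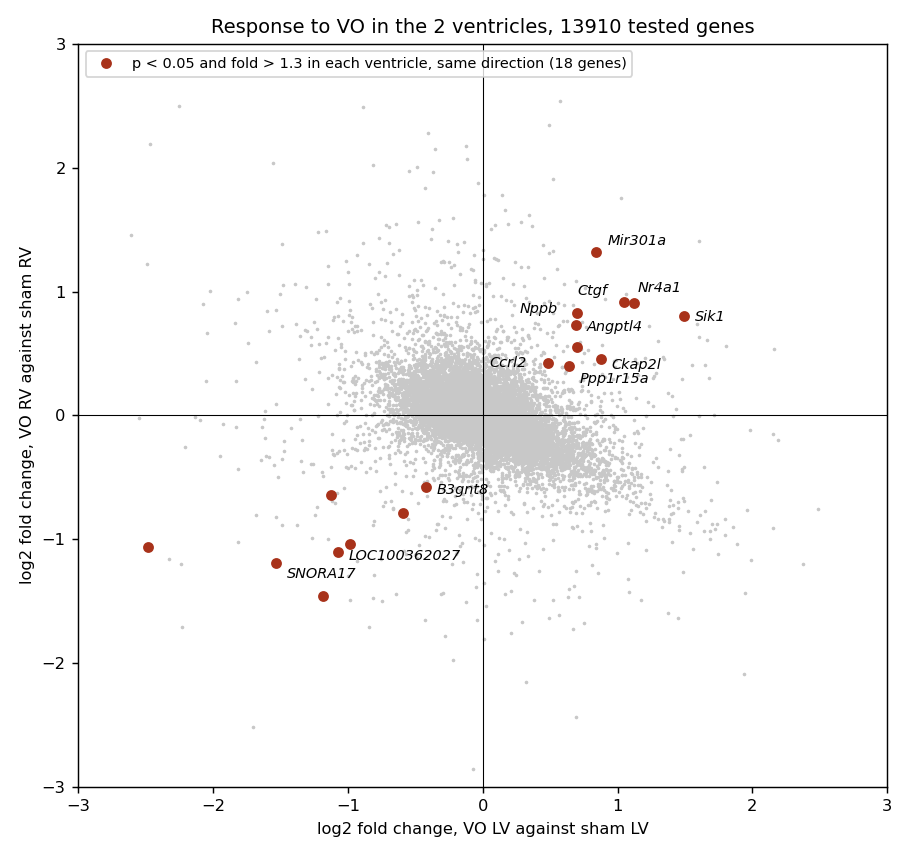
Log2 fold change of VO against sham in the RV (vertical) and the LV (horizontal) for the 13910 tested genes (grey points; 6 lie outside the axes), with the 18 genes at the nominal level in each ventricle and in 1 direction in red. The named genes of the upper right quadrant are higher in VO in both ventricles, and the cloud leans towards opposite signs.

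Over the 24 gene lists, a median of 1 sign in both ventricles was the exception. The medians of the immediate early, cell cycle, TGF-beta and heat shock lists were positive in both (the TGF-beta average of 0.02 turned to −0.05 without VO RV replicate 2, to −0.04 without the 2 RV libraries high in atrial markers and to −0.009 with atrial markers as a covariate), and those of the desmosome, calcium handling, thyroid hormone, insulin, glycolysis and fatty acid oxidation lists were positive in the LV and negative in the RV. For the 34 desmosome and intercalated disc genes, 0 were higher in both ventricles and 2 lower in both, with medians of 0.34 for LV and −0.24 for RV. The medians of macrophage, interferon and cytosolic ribosomal protein genes were negative in the LV and positive in the RV. The heat shock and unfolded protein response list, which does not hold Ppp1r15a, had medians of 0.02 and 0.01, and 3 of its 39 genes were higher in both ventricles. The hypoxia list was at −0.10 and −0.005, and the angiogenesis list at −0.21 and 0.05.

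**Figure D5:**
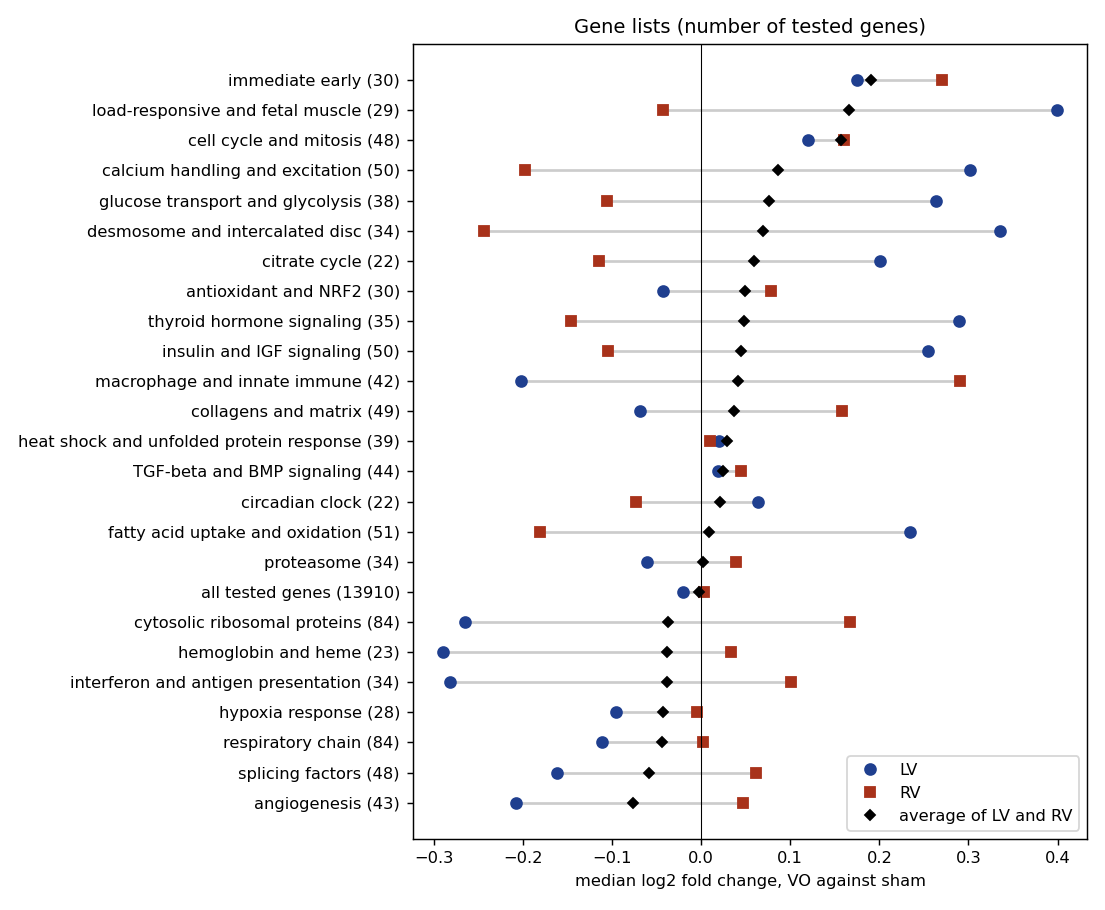
Median log2 fold change of VO against sham over the tested genes of each list in the LV (circles), the RV (squares) and their average (diamonds), with the number of tested genes in brackets and all tested genes for comparison. The 3 lists at the top average 0.16 to 0.19, and among them the load-responsive list has LV and RV medians of opposite sign.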

How the data were processed

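RNA-seq libraries of LV- and RV-free walls (sham LV, VO LV, sham RV and VO RV, 3 each) were analysed from the deposited FPKM table of 32545 genes. To make these FPKM, the authors filtered reads, aligned them and counted them per gene. The submitters' processing notes name HISAT2 2.0.5, featureCounts 1.5.0-p3, StringTie 1.3.3b, GATK 3.7 and DESeq2 1.20.0. Genome build, annotation release and strand setting are not given in the sources used here. Multiplied by gene length, the deposited FPKM gave back whole reads (tolerance 0.02, for 100% of values under 200 reads), and these served the depths and one alternative fit.

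The FPKM were rescaled by median-ratio size factors and taken as log2 after adding 0.5, so fold changes are on the log2(FPKM + 0.5) scale and understate changes of low genes. Genes averaging 0.5 FPKM or more were fitted in R 4.3.3 with limma 3.58.1 (eBayes with trend) as 4 group means. The tested contrast was the average of the LV and RV responses, with each response and their difference beside it. P values were adjusted over 13910 genes by the Benjamini-Hochberg method. DEGs were called at the study's thresholds, adjusted p below 0.05 and over 1.3-fold. Single genes were also tested by an exact two-sided permutation of treatment within each ventricle. In data simulated for the average contrast over 13910 genes, 47 of 72 genes changed 1.5-fold, 62 of 66 changed 2-fold and 59 of 62 changed 4-fold were called, with 6 unchanged genes. The adjusted threshold was easier to pass there, with many changed genes, than in the data, with 2 DEGs. These shares are therefore not a detection rate for the data.

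The genes named were the 12 higher and the 12 lower genes with the smallest p, a symbol, a mean FPKM of at least 1 and 1 direction in both ventricles. Clone-named genes were left out. To these came the best member of each of 24 gene lists with 1 direction in both ventricles, 9 markers of load and of the study's methods, and every DEG. Genes outside this rule are stated as such. The members and lists were chosen with earlier results of these data known. The alternatives were other scalings, pseudocounts, filters and models, covariates, replicate blocks and each library left out. The fit on the 7 libraries without Y-linked reads was added after the data were seen. The promoter sequences are from RefSeq (GRCr8).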

Additional observations from a re-analysis of the deposited data

Results flagged for a closer look

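Among the named load markers and genes of the study's methods, 4 differed between the ventricles in their response to VO. By the limma test of the difference, the LV response exceeded the RV response by 0.89 on the log2 scale for Myh6 (adjusted p = 0.0319), by 1.18 for Myh7 (adjusted p = 0.0249), by 0.94 for Acsl1 (adjusted p = 0.0317) and by 1.26 for Insr (adjusted p = 0.0249). For Myh6 and Myh7, the alpha and beta myosin heavy chains, the log2 fold changes were 0.55 and 0.45 in the LV and −0.34 and −0.73 in the RV. For Acsl1, which activates long-chain fatty acids, they were 0.44 and −0.50, and for the insulin receptor gene Insr 0.85 and −0.41. For Thra, the thyroid hormone receptor alpha gene, the responses differed by 0.53 (0.31 in the LV and −0.21 in the RV). This gene is given because its VO and sham libraries did not overlap in either ventricle and lay on opposite sides, but the test of the difference had an adjusted p of 0.0535 from limma.

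The 4 calls depended on the setting. By limma, none of the named genes passed when all 21603 genes above 0 were tested, with the number as a replicate block across all groups, without the 2 RV libraries high in atrial markers, in the 7 libraries without Y-linked reads, or without any 1 of sham LV replicates 1 and 2, sham RV replicates 1 and 2 and VO LV replicates 2 and 3. Between 5 and 17 of the named genes had an unadjusted p under 0.05 in the alternatives that hold this test. With the Y-linked covariate, and without VO RV replicate 3, 2 named genes passed.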

How the results depend on the processing

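Over 85 genes, each followed under at most 31 alternatives, 2614 of 2620 gene values kept the direction of the reported fit. The 6 reversals were of Acsl1, Nppa and Acta1. Acsl1 had log2 fold changes of 0.0074 without sham LV replicate 1, 0.0010 without sham RV replicate 2, 0.012 without VO RV replicate 3 and 0.040 in the 7 libraries without Y-linked reads, and −0.092 to 0.012 over the libraries left out. Nppa was at −0.28 without VO RV replicate 2, with a range of −0.28 to 1.07 over the libraries left out, and Acta1 at −0.12 in the libraries without Y-linked reads.

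The count of 2 DEGs became 1 in an additive model, in which Sik1 had an adjusted p of 0.0610 from limma, and 0 with the Y-linked covariate. With libraries left out one at a time it ran from 1 to 3. Sik1 was just above the threshold without VO LV replicate 2, VO LV replicate 3 or VO RV replicate 1 (adjusted p = 0.0515, 0.0513 and 0.0512 from limma). Ppp1r15a joined without sham LV replicate 1, and AABR07026359.1 without VO RV replicate 2. In the 7 libraries without Y-linked reads, with 1 sham library in each ventricle, 5 genes were DEGs, namely Sik1, RGD1359290, Tma7, LOC100911730 and Triap1, and Nr4a1 was not among them. The cause of these changes was not tested.

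The 184 genes with 1 direction at the nominal level became 484 with no fold threshold, 440 in the libraries without Y-linked reads, and 169 to 310 with each library left out, the highest without VO RV replicate 3. The 18 genes at that level in each ventricle became 33, 70 and 15 to 28 in the same order, again highest without VO RV replicate 3. Among the named genes, 4 differed between the ventricles. That number was 0 with all genes above 0 tested, without the 2 RV libraries high in atrial markers and in the libraries without Y-linked reads, 2 with the Y-linked covariate, and 0 to 6 with each library left out (limma; 5 to 17 genes at an unadjusted p under 0.05 over the alternatives that hold this test). It was 0 without sham LV replicate 1 or 2, sham RV replicate 1 or 2, or VO LV replicate 2 or 3, and 2 without VO RV replicate 3.

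The labels do not say whether same-numbered libraries share a rat, and the numbers were not used as pairs. The deviations of same-numbered libraries had correlations of −0.22 to 0.12 over genes. Y-linked genes held 1 read in VO LV replicate 3 and 2574 reads in VO RV replicate 3, which LV and RV of 1 single rat would not show, while the other 5 same-numbered pairs did not differ in the presence of such reads. With the number as a replicate block there were still 2 DEGs, but 0 named genes differed between the ventricles (13 at an unadjusted p under 0.05). Averaging the LV and RV of each number, 3 against 3, gave 0 DEGs with limma, 261 genes at the nominal level, and adjusted p values of 0.225 for Nr4a1 and 0.187 for Sik1. If LV and RV libraries of the other numbers came from 1 rat, the 6 libraries of a treatment would be fewer than 6 independent samples.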

Other observations

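Each gene described next had the smallest p among the members of its list with 1 direction in both ventricles. Bhlhe40, a repressor of the circadian clock, was 13.4 to 18.3 FPKM in sham and 16.4 to 23.3 FPKM in VO (log2 fold change 0.27, SE 0.09), in a list of 22 tested genes with 5 higher and 4 lower in both ventricles. Cd68, a lysosomal glycoprotein of macrophages, had log2 fold changes of 0.03 for LV and 0.76 for RV, and the summed FPKM of 10 macrophage markers was 101 and 87.0 in VO RV replicates 2 and 3 against 52.9 to 71.4 in the other 10 libraries. Cxcr4, the chemokine receptor of endothelial and blood cells, had log2 fold changes of −0.54 for LV and −0.04 for RV. Pfkp, a phosphofructokinase of glycolysis, was 14.3 to 18.5 FPKM in sham LV and 20.6 to 26.7 in VO LV, and 22.3 to 26.4 in sham RV and 22.2 to 28.8 in VO RV. By limma, the adjusted p of the average response was 0.931 for Pfkp and 0.938 for Bhlhe40, Cd68 and Cxcr4, and the unadjusted p was under 0.05 for each.

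Hnrnpc, which encodes an RNA-binding protein of the spliceosome, was 40.1, 4.79 and 9.97 FPKM in VO LV and 14.3, 4.19 and 6.79 FPKM in VO RV against 2.86 to 6.77 FPKM in sham. Its average log2 fold change of 1.16 (SE 0.44) became 0.75 when VO LV replicate 1 was left out and 0.94 when VO RV replicate 1 was, the highest library of each VO group, and the gene has processed copies among which the counting could split reads.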
